A study of Mus musculus with 6 samples.

Results

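A group of 10 genes of the Hippo pathway were followed in mouse embryos at the 4-cell stage with and without siRNA against Son, which encodes a nuclear speckle protein of pre-mRNA splicing. They were taken by gene symbol from the 46072 genes in each library's count table: Yap1, Wwtr1, Lats1, Lats2, Amot, Amotl1, Amotl2, Nf2, Stk3 and Mob1a. All 10 were found, each in a single row, and all 10 passed the filter on low counts that left 17788 genes to test. The siRNA had been microinjected into zygotes, and both groups were collected as 4-cell embryos, with 3 libraries for controls and 3 for Son siRNA. Smart-Seq2, used for all of them, makes full-length cDNA from oligo(dT) primers. The labels do not give the mouse strain, the control treatment, the number of embryos in a library or the litters the embryos came from. The p-values therefore cover only the spread among these 6 libraries, which may be technical. Every level below comes from whole embryos, in which fewer cells of a kind and less RNA per cell cannot be told apart.

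The Hippo pathway is a kinase cascade that restrains growth and, in the early mouse embryo, sorts outer cells that form trophectoderm from inner cells. The MST kinases (Stk3 encodes MST2) with their scaffold activate the LATS kinases and the MOB1 adaptors, and LATS then phosphorylates the coactivators YAP and TAZ (Yap1 and Wwtr1), which stay in the cytoplasm. Unphosphorylated YAP and TAZ enter the nucleus and bind TEAD factors. Angiomotins (Amot, Amotl1, Amotl2) are junctional scaffolds that bind YAP and, together with the Nf2 product merlin, bring LATS to the membrane. In cells with an apical domain they are drawn away from the junctions and the cascade is weaker there.

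Total estimated counts were 104634855 to 118865650 units per library, and 1 read pair was taken as 4 units, an assumption from the values. PCR copies without molecular identifiers are not independent molecules, so intervals and limits from counts describe counting error alone. Son itself had 249, 322 and 332 CPM in controls 1 to 3 (library-scaled counts with TMM factors) and 41.03, 28.0 and 25.1 CPM in siRNA libraries 1 to 3. Its log2 fold change was -3.26 with a standard error (SE) of 0.272, and edgeR's quasi-likelihood test gave a Benjamini-Hochberg adjusted p of 0.00991. The Son call did not hold without siRNA library 1, 2 or 3 (edgeR adjusted p = 0.0648, 0.0709 and 0.136) or with the replicate number as a block (0.0617; 3.62e-26 to 0.136 over 15 alternatives). All 10 oocyte and embryo markers reached 1 CPM in a library, with a summed level of 5602 to 11073 CPM in controls and 3823 to 4255 CPM after siRNA. Obox6, an oocyte-type homeobox gene, and Dppa2 made up most of that difference, with 3129 to 6676 CPM of Obox6 in controls and 1988 to 2269 CPM after siRNA. The oocyte genes Oosp1 and Zp3 had higher levels in every siRNA library than in any control (12.1 to 43.8 against 74.3 to 138 CPM for Oosp1), and Tfap2c, Padi6, Dppa3 and Nlrp5 overlapped between groups. Obox6, Dppa2, Pou5f1 and Cdh1 had lower levels in every siRNA library than in any control. Pou5f1 had 1.88 to 5.75 CPM in controls and 0.755 to 1.37 CPM after siRNA, and Cdh1 13.8 to 21.5 and 10.4 to 12.6 CPM. Of all genes tested, 11.6% were lower and 12.1% higher without overlap. Of the 8 cumulus cell markers, Inhba was at 0 in every library, 6 others stayed under 1 CPM, and Amhr2 made up most of a sum of 6.53 to 18.0 CPM in controls and 19.9 to 27.8 CPM after siRNA. The sperm sum was 0.150 to 1.14 CPM in controls and 0.151 to 0.905 CPM after siRNA, with Tnp2 and Odf1 at 0. The blood sum was 6.02 to 12.1 CPM and 9.74 to 10.96 CPM, mostly from the alpha globins, with Hbb-bt, Hbb-bs and Ptprc at 0. The part of the embryo and Amhr2 differences in the results below was not tested.

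Amotl2 was the only member past edgeR's test, with a mean after Son siRNA of 16.5% of its control level. The call did not hold in 6 of 15 alternatives. Amot and Lats2 had lower levels in every siRNA library than in any control, and Lats1 and Amotl1 had higher levels. These 4 did not pass edgeR's test. Yap1, Wwtr1, Nf2, Stk3 and Mob1a had group means within a log2 fold change of -0.15 to 0.12, with overlapping libraries. By edgeR's adjusted p, 1 of 10 members was lower and 0 were higher, where 0.899% of the genes tested were lower and 0.0899% higher. At an unadjusted p under 0.05 there were 3 members against 14.7% of the genes tested, and DESeq2's Wald test called 2, both lower (Amotl2 and Amot), against 4.63% of the genes lower. Groups did not overlap for 3 members lower after siRNA (11.6% of the genes tested) and 2 higher (12.1%). Amotl1, 1 of the 2 higher, had no reads in controls 1 and 2 and passed the filter through its siRNA libraries. Its place in that count is a description only. The median log2 fold change of the 10 members was -0.15, and that of all genes tested was 0.02. The 10 members and the gene lists further below were chosen with earlier results of these data known. Their counts beside the shares of all genes are therefore a description.

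**Figure D1:**
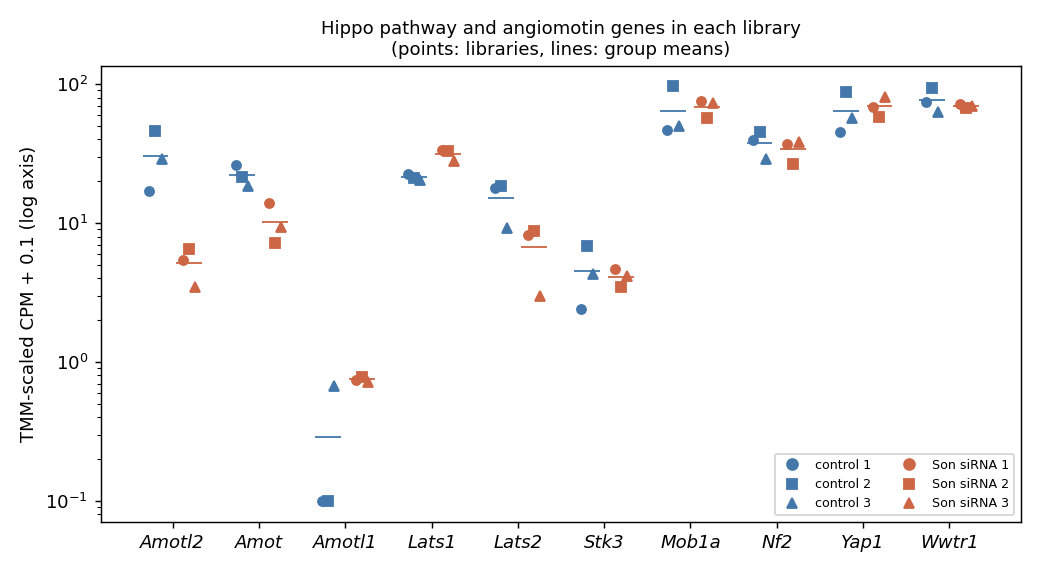
TMM-scaled CPM plus 0.1 on a log axis for each of the 10 genes, with 1 point per library (blue control, orange Son siRNA, shape for the replicate number) and a line at each group mean. The siRNA points of Amotl2 (3.38 to 6.38 CPM) lie below all control points (16.8 to 45.7 CPM), while the groups of Yap1, Wwtr1, Nf2, Stk3 and Mob1a overlap.

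The angiomotin genes lie apart on the genome. Amotl2 (ENSMUSG00000032531) is on chromosome 9 from 102716672 to 102733418 on GRCm38, plus strand, with 16 merged exon blocks in GENCODE vM21. Amot (ENSMUSG00000041688) is on chromosome X from 145446425 to 145505181 and Amotl1 (ENSMUSG00000013076) on chromosome 9 from 14541966 to 14645056, both on the minus strand. No exonic base of the 3 overlaps another annotated gene, and 0 of their 100-base transcript stretches occur in another gene. The read length is not given, and sharing of shorter stretches or of stretches with mismatches was not tested. The 250 bases before a RefSeq transcript start of each (GRCm38.p6) are shown as a description of the 3 paralogs. All 3 starts lie inside the gene bounds given above, downstream of the outermost annotated start. Which starts the embryos used was not tested. The windows cover chr9:102717554-102717803 on the plus strand for Amotl2, chrX:145487640-145487889 on the minus strand for Amot and chr9:14615001-14615250 on the minus strand for Amotl1. Each is written 5′ to 3′ in the direction of transcription. Capitals mark GGAATG or its reverse complement CATTCC, the core that TEAD factors recognise, searched on both strands.
Amotl2: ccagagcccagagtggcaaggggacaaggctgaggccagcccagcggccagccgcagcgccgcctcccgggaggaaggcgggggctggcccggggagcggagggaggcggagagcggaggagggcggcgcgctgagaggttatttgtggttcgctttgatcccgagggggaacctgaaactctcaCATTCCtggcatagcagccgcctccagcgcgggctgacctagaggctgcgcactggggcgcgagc
Amot: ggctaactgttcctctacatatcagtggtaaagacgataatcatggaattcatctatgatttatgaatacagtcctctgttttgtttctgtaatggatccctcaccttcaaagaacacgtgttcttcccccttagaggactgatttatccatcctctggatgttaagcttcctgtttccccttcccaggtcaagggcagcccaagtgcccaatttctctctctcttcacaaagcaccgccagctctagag
Amotl1: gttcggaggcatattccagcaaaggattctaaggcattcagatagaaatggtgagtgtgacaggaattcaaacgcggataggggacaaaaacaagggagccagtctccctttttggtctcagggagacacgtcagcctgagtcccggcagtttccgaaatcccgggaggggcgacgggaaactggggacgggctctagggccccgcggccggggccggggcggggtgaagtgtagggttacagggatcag
The Amotl2 window held 1 match, 65 bases before the start (position -65), and the Amot and Amotl1 windows held 0. Among all 32851 windows of this length in the table, 12.6% held the motif. The 9 members with an entry had 12 windows, of which 5 held a match: 2 overlapping windows of Wwtr1 and 1 each of Amotl2, Yap1 and Mob1a. G and C made up 70.4% of the Amotl2 window, 44.8% of the Amot window and 58.4% of the Amotl1 window, where the median over all windows was 52.4%. A match describes these letters and is not evidence of binding.

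Amotl2 had 16.8, 45.7 and 28.8 CPM in controls 1 to 3. After siRNA it had 5.33, 6.38 and 3.38 CPM in libraries 1 to 3. The groups did not overlap, and the lowest control was still above the highest siRNA library, although the controls themselves spread widely. Its mean was 30.4 ± 14.5 CPM for controls against 5.03 ± 1.53 CPM with siRNA (SD, n = 3 each). This was a difference of -2.60 on the log2 scale (SE 0.440), past the threshold with an edgeR adjusted p of 0.0393. By fold change Amotl2 ranked 283 from the lowest of the 17788 genes tested. The fold change stayed between -2.89 and -2.18 over 15 alternatives, but the call did not hold in 6 of them. Those were the fits without control 3 (edgeR adjusted p = 0.0691), without siRNA library 1, 2 or 3 (0.277, 0.127 and 0.272), with total counts (0.0913) and with the replicate number as a block (0.0886), in a range of 1.44e-07 to 0.277 over all 15.

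Amot, the founding angiomotin, had 26.2, 21.2 and 18.3 CPM in controls and 13.8, 7.08 and 9.23 CPM after siRNA. All 3 siRNA libraries were below all 3 controls, with a narrower gap than for Amotl2. The means were 21.9 ± 4.01 and 10.02 ± 3.41 CPM (SD, n = 3 each). The log2 difference was -1.13 (SE 0.341) and did not pass edgeR's test (adjusted p = 0.162). DESeq2's Wald test did call it lower (log2 -1.14, adjusted p = 0.0224), in a range of 0.0224 to 0.506 over 15 alternatives.

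Amotl1, the third family member, was barely detected. It had 0, 0 and 55 units in controls 1 to 3, about 14 read pairs in control 3, and 78, 80 and 82 units after siRNA, about 20 pairs in each library. In CPM these were 0, 0 and 0.571 against 0.644, 0.683 and 0.619, where 3 read pairs, the limit that a count of 0 allows, stand for 0.125 and 0.106 CPM in controls 1 and 2. Control 3 was therefore close to the siRNA libraries and the other controls were not. The summed pairs gave a ratio of 3.54 after scaling (95% exact counting interval 1.95 to 6.86), and the edgeR fit gave a log2 fold change of 1.77 (SE 1.79, adjusted p = 0.729). Control 3 was the only control with reads, and without it the control count was 0. The siRNA level was then 11.3-fold a floor of 3 pairs over the group, a value that leaves out the counting error of the siRNA pairs. That fit did not pass the test (edgeR adjusted p = 0.0862, in a range of 0.0862 to 0.904 over 15 alternatives).

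Genes were added on a scale of CPM per kb of exon, merged over all annotated transcripts. Which transcripts the embryos used was not tested, so sums and shares rest on these merged lengths. The summed angiomotin level was 5.80, 9.78 and 6.81 in controls and 2.55, 1.93 and 1.70 after siRNA. No siRNA library reached the lowest control. Amotl2 made up 46.1%, 74.2% and 67.2% of that sum in controls and 33.3%, 52.7% and 31.6% after siRNA, so the groups overlapped in its share. Amot made up 37.2 ± 14.8% in controls and 57.6 ± 11.96% after siRNA, and Amotl1 0.278 ± 0.481% and 3.22 ± 0.618% (SD, n = 3 each). The Amot share ran from 25.8% to 53.9% in controls and from 43.8% to 64.7% after siRNA, so it overlapped too. Amotl2 was above Amot in controls 2 and 3 and in siRNA library 2, and Amot was above Amotl2 in control 1 and in siRNA libraries 1 and 3.

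**Figure D2:**
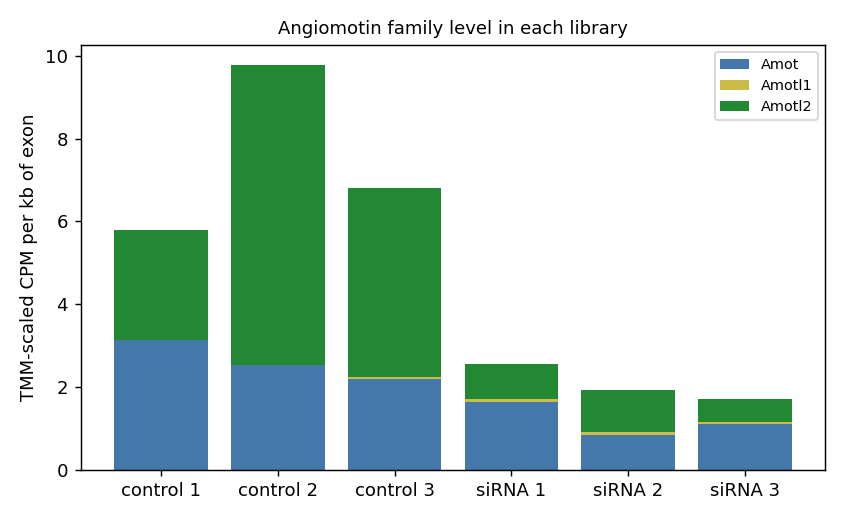
Stacked TMM-scaled CPM per kb of exon of Amot (blue), Amotl1 (yellow) and Amotl2 (green) in each library, bars starting at 0. The family sum is 5.80 to 9.78 in the controls and 1.70 to 2.55 after Son siRNA, and Amotl1 is a thin band where it is visible at all.

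The LATS kinases, which phosphorylate YAP and TAZ, had fold changes of opposite sign. Lats1 (ENSMUSG00000040021, chromosome 10, 7681214 to 7716460, plus strand) had 22.5, 21.01 and 20.3 CPM in controls and 33.2, 32.7 and 28.0 CPM after siRNA. Every siRNA library was higher than every control, and the controls lay close together. Its log2 fold change was 0.56 (SE 0.248, edgeR adjusted p = 0.341). Lats2 (ENSMUSG00000021959, chromosome 14, 57689662 to 57758388, minus strand) had 17.7, 18.5 and 9.12 CPM in controls and 8.14, 8.69 and 2.89 CPM after siRNA. Control 3 was only just above the siRNA libraries, and siRNA library 3 was the lowest. Its log2 fold change was -1.20 (SE 0.480, edgeR adjusted p = 0.289). The Lats2 level carries an added uncertainty: 42.4% of the exonic bases and 62.4% of the 100-base transcript stretches are shared with Gm49361, an overlapping protein-coding gene model. Gm49361 is not among the counted genes, so reads of the shared part cannot be told apart from Lats2.

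Within a library, the Lats2 to Lats1 ratio does not depend on the scaling between libraries. As log2 ratios of counts it was -0.35, -0.19 and -1.15 in controls and -2.03, -1.91 and -3.27 after siRNA. The groups did not overlap: every siRNA library had proportionally less Lats2 to Lats1 than any control. The difference was -1.84 (two-sided exact permutation p = 0.1, the smallest that 3 against 3 libraries can give; 0.233 after Benjamini-Hochberg adjustment over 7 ratios). It stayed between -2.13 and -1.41 when any library was left out.

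Of the other paralog ratios, Amotl2 to Amot differed by -1.36 (exact permutation p = 0.2, adjusted 0.35), with control 1 inside the siRNA range. Wwtr1 to Yap1 differed by -0.30 and Mob1b to Mob1a by -0.61 (exact permutation p = 0.4 each, adjusted 0.467), and Stk3 to Stk4 by 0.06 (exact permutation p = 0.9), all with overlapping groups. The ratios that contain Amotl1 rest on what is added to a count of 0. With 2 units added, Amotl1 to Amot differed by 4.63 and Amotl2 to Amotl1 by -5.99, and with 8 units by 3.35 and -4.70. In both the groups did not overlap (exact permutation p = 0.1).

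**Figure D3:**
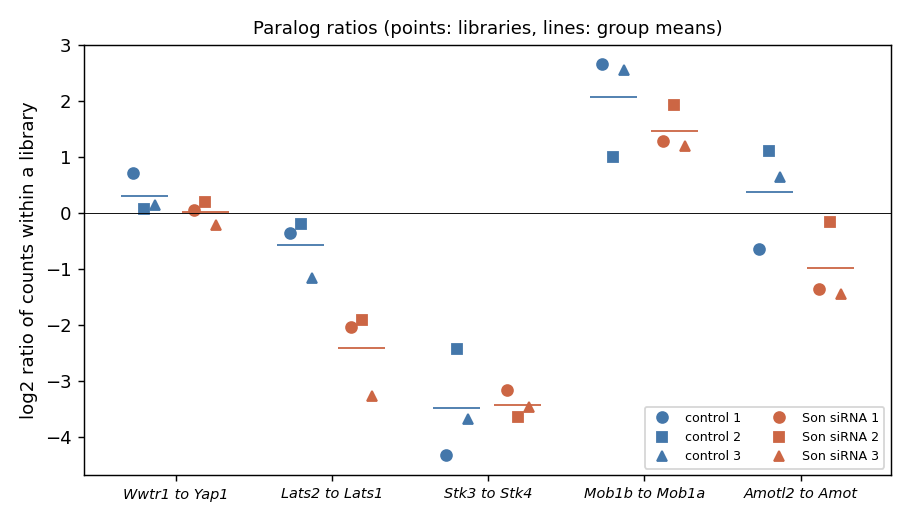
Log2 ratio of the counts of 5 paralog pairs within each library (points, blue control and orange Son siRNA) with group means as lines. Only the Lats2 to Lats1 pair, of the 5 drawn, has groups that do not overlap (controls -1.15 to -0.19, siRNA -3.27 to -1.91).

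Upstream of LATS, Stk3 and Mob1a had similar group means. Stk3 (ENSMUSG00000022329, chromosome 15, 34875496 to 35178921), the MST2 kinase, had 2.29, 6.75 and 4.17 CPM in controls and 4.56, 3.37 and 4.05 CPM after siRNA, all siRNA libraries inside the control range (log2 -0.14, SE 0.462, edgeR adjusted p = 0.934). Its paralog Stk4, which encodes MST1, had 45.7 ± 8.78 and 42.7 ± 1.91 CPM (SD, n = 3 each). In counts Stk3 was below Stk4 in every library, by log2 ratios of -4.33 to -2.43. Mob1a (ENSMUSG00000043131, chromosome 6, 83326016 to 83343776), an adaptor and activator of LATS, had 46.3, 96.1 and 49.96 CPM in controls and 75.1, 57.2 and 73.6 CPM after siRNA (log2 0.10, SE 0.318, edgeR adjusted p = 0.934). Control 2 was the highest and the other controls were the lowest. Its paralog Mob1b had 261 ± 58.3 and 190 ± 25.9 CPM. Nf2 (ENSMUSG00000009073, chromosome 11, 4765845 to 4849536) had 39.2, 45.0 and 28.9 CPM in controls and 36.9, 26.6 and 38.2 CPM after siRNA (log2 -0.15, SE 0.280, edgeR adjusted p = 0.870). The groups overlapped for all 3 genes.

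The coactivators, the end point of the cascade, also kept overlapping groups. Yap1 (ENSMUSG00000053110, chromosome 9, 7931999 to 8004596) had 45.2, 88.2 and 57.3 CPM in controls and 68.7, 58.2 and 80.3 CPM after siRNA. Its log2 fold change was 0.12 (SE 0.293, edgeR adjusted p = 0.911). Of its exonic bases 1.25% overlap Gm20416, which stayed at or under 0.146 CPM. Wwtr1, which encodes TAZ (ENSMUSG00000027803, chromosome 3, 57455649 to 57575910), had 74.1, 93.2 and 63.0 CPM in controls and 71.6, 66.7 and 69.3 CPM after siRNA. Its log2 fold change was -0.15 (SE 0.230, edgeR adjusted p = 0.8405), and the siRNA libraries lay within a few CPM of each other. These p-values do not show that the levels were equal: the standard errors leave room for modest changes either way.

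**Figure D4:**
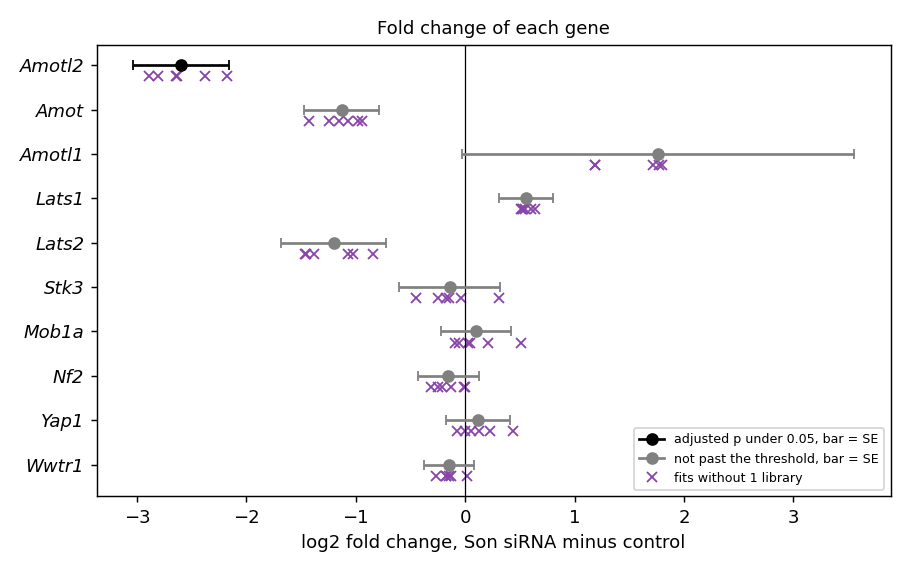
Log2 fold change (Son siRNA minus control) of each gene with its standard error, black where the edgeR adjusted p is under 0.05 and grey otherwise, and crosses for the fits without 1 library. The Amotl1 fit without control 3 is not drawn because its controls are all at 0. Amotl2 lies at -2.60 with every cross below -2, while the crosses of Yap1, Wwtr1, Stk3 and Mob1a fall on both sides of 0.

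Much of the spread among controls came with control 2. It was the highest of all 6 libraries for 7 of the 10 members (Yap1, Wwtr1, Lats2, Amotl2, Nf2, Stk3 and Mob1a), where it was the highest for 19.2% of the genes tested. Its log2 CPM was above the mean of controls 1 and 3 by a median of 0.49 over the members and -0.03 over the 6079 genes at a mean of 10 CPM or more. For single members the excess was 1.12 for Stk3, 1.05 for Amotl2, 0.998 for Mob1a and 0.79 for Yap1, against -0.03 for Lats1 and -0.05 for Amot. For Amotl1 it was -2.53, a value that rests on the count of 0 in controls 1 and 2. Without control 2, Amotl2 had a log2 fold change of -2.18 and was still past the threshold (edgeR adjusted p = 0.0465, within the range given above), and Stk3, Mob1a and Yap1 had 0.31, 0.51 and 0.43. Mitochondrial genes took 9.79% of the counts of control 2 and 13.2% to 17.5% in the other libraries, a difference whose part in these values was not tested. The SD of log2 CPM was larger in controls than after siRNA for 7 of 10 members and for 80.3% of the genes at 10 CPM or more.

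Genes were also ordered per kb of merged exon, an order that rests on the same merged lengths. The coactivator Wwtr1 and the adaptor Mob1a had the highest levels in controls, 16.1 ± 3.19 and 13.4 ± 5.79 CPM per kb (SD, n = 3). Yap1 (6.87 ± 2.40), Nf2 (5.53 ± 1.19), Amotl2 (4.84 ± 2.31), Lats1 (2.92 ± 0.157), Amot (2.61 ± 0.478) and Lats2 (2.16 ± 0.744) followed, then Stk3 (0.721 ± 0.366) and Amotl1 (0.0189 ± 0.0328). Neighbours in this order overlapped in range from Yap1 down to Lats2, and Wwtr1 overlapped Mob1a. The gaps below Mob1a, Lats2 and Stk3 had no overlap. After siRNA Amotl2 stood eighth in the order at 0.7998 ± 0.242 CPM per kb, where it was the fifth in controls, and Lats1 (4.29 ± 0.399) stood above Amot (1.19 ± 0.405) with no overlap. The range of Amotl2 after siRNA overlapped those of Amot, Lats2 and Stk3, so its place among them is not a separated one. The order of Wwtr1, Mob1a, Yap1 and Nf2 was the same in both groups.

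The other pathway genes mostly did not pass the test, and the kinase gene Map4k1 fell. The list of other Hippo genes held 54 symbols in the files, of which 48 were tested; 1 was lower and 0 higher by edgeR's adjusted p (0.989% of all genes in either direction), with a median log2 fold change of 0.05 beside 0.02 for all genes tested. At an unadjusted p under 0.05 there were 12 lower and 1 higher, against 8.86% and 5.88% of the genes tested. The 1 higher, named after its values were seen, was Strn (log2 0.91, edgeR adjusted p = 0.223). Map4k1, of the MAP4K family that can activate LATS in parallel with MST, had 10.7, 10.001 and 10.3 CPM in controls and 2.47, 3.23 and 1.85 CPM after siRNA. The controls were nearly level and every siRNA library was far below them (log2 -2.04, SE 0.361, edgeR adjusted p = 0.0416, in a range of 2.61e-06 to 0.294 over 15 alternatives). The call did not hold in 8 alternatives, among them without control 1 or 3 (0.0895 and 0.0731) and without siRNA library 1, 2 or 3 (0.294, 0.120 and 0.289).

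Tead4, the TEAD factor needed for trophectoderm, had 22.3, 39.2 and 26.3 CPM in controls and 14.6, 14.4 and 14.5 CPM after siRNA. The siRNA libraries were all below the controls and nearly equal (log2 -1.01, SE 0.299, edgeR adjusted p = 0.151; DESeq2 adjusted p = 0.0177, in a range of 0.0177 to 0.474 over 15 alternatives). Ywhae, an adaptor that holds phosphorylated YAP in the cytoplasm, had a log2 fold change of -0.62 (edgeR adjusted p = 0.185). Itch, a ubiquitin ligase with targets among LATS and angiomotin proteins, had -0.64 (edgeR adjusted p = 0.187). The MST scaffold gene Sav1, named after its values were seen, had 2.10 ± 0.752 and 4.22 ± 0.933 CPM (log2 1.01, edgeR adjusted p = 0.343). DESeq2 called 2 of the 48 lower, Map4k1 and Tead4, a share no larger than the 4.63% of all genes that it called lower.

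Of the list of YAP and TEAD target genes, 34 symbols were in the files and 27 were tested; 2 were lower (Myc and Amotl2) and 0 higher by edgeR's adjusted p, where 0.899% of all genes were lower and 0.0899% higher. At an unadjusted p under 0.05 there were 6 lower and 2 higher, against 8.86% and 5.88% of all genes, and the median log2 fold change was 0.12 beside 0.02. DESeq2 called 4 of the 27 lower (Amotl2, Birc5, Myc and Tead4) and 0 higher, where it called 4.63% of all genes lower. Amotl2, Lats2 and Nf2 belong to this list too. Without them 1 of 24 was lower by edgeR's adjusted p. The median was then 0.36 with 14 of 24 above 0, where 9119 of the 17788 genes tested were above 0. The sign of the median depended on genes with few counts. For the full list it was -0.15 with at least 50 units in 3 libraries (23 genes tested). With counts divided by 4 it was -0.17 (24 genes tested). Myc, a growth regulator and a YAP target in some cells, had 48.3, 48.5 and 35.8 CPM in controls and 5.32, 7.36 and 8.03 CPM after siRNA (log2 -2.68, SE 0.303, edgeR adjusted p = 0.0122). The groups were far apart, and the call was lost with the replicate number as a block (edgeR adjusted p = 0.0640) and without siRNA library 1, 2 or 3 (edgeR adjusted p = 0.171, 0.0716 and 0.149, in a range of 2.56e-16 to 0.171 over 15 alternatives). Birc5, which encodes survivin, averaged 932 ± 48.3 CPM in controls and 549 ± 107 CPM with siRNA (log2 -0.76, edgeR adjusted p = 0.124). Its groups did not overlap, and DESeq2 called it lower (adjusted p = 0.0335, in a range of 0.0335 to 0.467 over 15 alternatives). The classical targets Cyr61 and Ctgf, named after their values were seen, had log2 fold changes of -1.81 and -1.16 (edgeR adjusted p = 0.253 and 0.464). Control 2 alone held 24.4 CPM of Cyr61, while the other controls had 3.80 and 5.26 CPM and the siRNA libraries 2.77 to 3.81 CPM. The 2 targets that were higher at an unadjusted p under 0.05, also named after their values were seen, were Igfbp3 and Foxf2. Igfbp3, which encodes a binding protein of insulin-like growth factors, had 1.45 to 3.50 CPM in controls and 4.38 to 6.77 CPM after siRNA (log2 1.28, edgeR adjusted p = 0.228). Foxf2, a forkhead factor gene, had 0, 0 and 0.125 CPM in controls and 0.198, 0.948 and 1.16 CPM after siRNA (edgeR adjusted p = 0.319). With no reads in controls 1 and 2, Foxf2 passed the filter through its siRNA libraries. Its place among the 2 higher targets is a description only. Cdx2, the trophectoderm target of Tead4, did not pass the filter and reached at most 0.208 CPM.

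Polarity and junction genes, which act upstream by drawing angiomotins to or from the junctions, had 0 of 39 members past edgeR's test, with 6 lower and 2 higher at an unadjusted p under 0.05 (8.86% and 5.88% of all genes tested) and a median log2 fold change of -0.12 beside 0.02 for all genes. DESeq2 called 3 of the 39, all lower, where it called 4.63% of all genes lower: F11r, Tjp1 and Crb3. F11r, the junctional adhesion molecule JAM-A, had 89.0, 194 and 110 CPM in controls and 46.1, 45.5 and 49.99 CPM after siRNA, without overlap (log2 -1.47, SE 0.307, edgeR adjusted p = 0.0658, in a range of 0.000347 to 0.329 over 15 alternatives). Tjp1, the tight junction scaffold ZO-1, had 38.3 ± 5.57 and 19.3 ± 2.81 CPM (log2 -0.99, edgeR adjusted p = 0.120). Rhoa, a small GTPase of the actin cortex, and Crb3, an apical polarity protein, had log2 fold changes of -0.68 and -1.10 (edgeR adjusted p = 0.185 and 0.192). Crb3 overlapped between groups, with 98.0 CPM in control 3 and 100.3 CPM in siRNA library 3. The 2 higher genes, named after their values were seen, were Mpp5 and Rdx. Their log2 fold changes were 0.63 and 0.61 (edgeR adjusted p = 0.297 and 0.321), and the groups did not overlap for either.

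**Figure D5:**
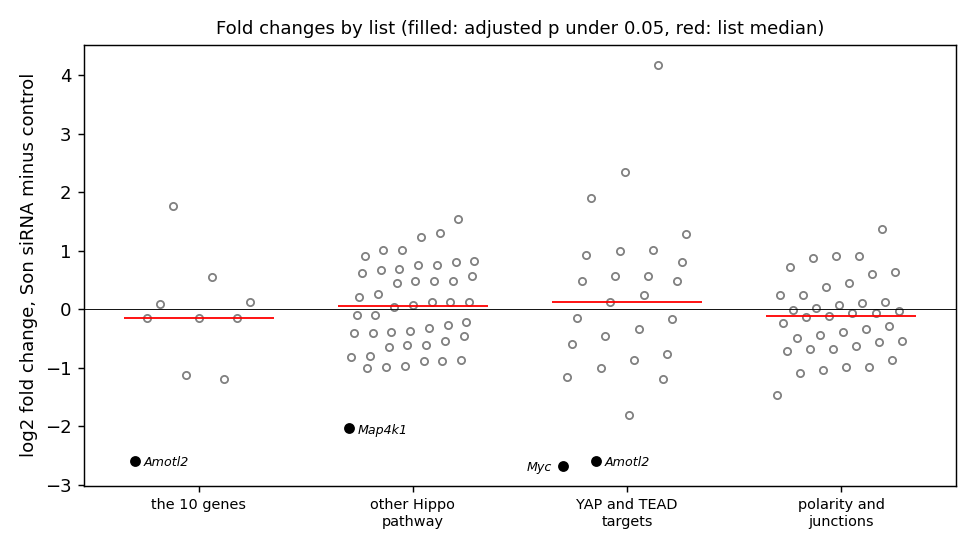
Log2 fold change of each tested gene (Son siRNA minus control) in the 10 genes and the 3 pathway lists, filled and named where the edgeR adjusted p is under 0.05, with the list median in red. Medians lie between -0.15 and 0.12, and the filled points are Amotl2, Map4k1 and Myc, with Amotl2 in 2 lists.

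Genes whose pattern over the 6 libraries was closest to that of Amotl2 were found by the root mean square difference of log2 CPM, each gene centred on its mean, among 7349 other genes with a group mean of 5 CPM or more. Unc45b, a myosin chaperone gene, was nearest at 0.228, with 8.36, 17.2 and 13.3 CPM in controls and 3.13, 2.78 and 1.97 CPM in siRNA libraries 1 to 3 (log2 -2.30). Clec2i, a C-type lectin gene, followed at 0.328 (log2 -2.72), and Oxct1, an enzyme of ketone body use, at 0.367 (log2 -2.25). Since likeness over all 6 libraries chose these genes, their fold changes are a description. Of their 100-base stretches, 4.81%, 0.223% and 6.98% occur in other genes.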

How the data were processed

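RNA of 6 libraries of mouse 4-cell embryos, 3 control and 3 Son siRNA, was analysed, with groups and replicate numbers from the titles. The authors deposited 1 table per library with whole-number estimated counts per gene, not normalized. HISAT2 2.0.5, StringTie 1.3.3b and GRCm38 are named in the submitters' processing notes. The sources used here give no annotation release, counting script or read length, so 4 units per read pair is an assumption.

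Counts were tested as deposited with edgeR 4.0.16 (R 4.3.3): filterByExpr, TMM, glmQLFit and glmQLFTest of siRNA minus control over all genes, Benjamini-Hochberg threshold 0.05. Lengths and overlaps came from GENCODE vM21, by Ensembl identifier. Reads carry no strand. Promoter windows came from RefSeq on GRCm38.p6. The members and lists were chosen with earlier results of these data known. Named genes were Son, the 10 members, genes past the threshold and the 4 smallest p-values of each list, and the 3 genes most like a called member. Paralog ratios used log2 of counts plus 2 and an exact permutation test over libraries. The test was checked on simulated counts. Alternatives were other scalings and filters, DESeq2 1.42.0, limma 3.58.1 (voom with a variance per group), counts divided by 4, a replicate block and leaving out each library.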

Additional observations from a re-analysis of the deposited data

How the results depend on the processing

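Over 15 alternatives the number of genes called by the test, 176 with TMM, was 42 with total counts, 100 without a filter, 288 with at least 50 units in 3 libraries, 1228 with DESeq2, 373 with limma-voom and 330 with counts divided by 4. Leaving out each library gave 0 to 315 genes. The 0 came without siRNA library 1, 2 or 3 in edgeR, with 1786, 2348 and 1733 genes at an unadjusted p under 0.05. Without control 1, 2 or 3 there were 64, 315 and 87. Total counts moved the median log2 fold change of all genes from 0.02 to 0.31, where Wwtr1, Nf2 and Stk3, at 0.12, 0.13 and 0.11, turned above 0 but stayed below that median.

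Among the 10 members, 1 call became 0 with total counts (2 at an unadjusted p under 0.05) and 2 with DESeq2, and 0 to 1 when each library was left out. Other Hippo genes had 0 calls with total counts, 0 without a filter and 2 with DESeq2 in place of 1, and 0 to 2 when each library was left out. YAP and TEAD targets had 1 with total counts and 4 with DESeq2 in place of 2, and 0 to 2 when each library was left out. Polarity genes had 1 with the stricter filter, 1 with limma-voom, 1 with counts divided by 4 and 3 with DESeq2 in place of 0. Son ranged from -3.50 to -3.12 in log2 when each library was left out.

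Signs turned for members near 0 when each library was left out. Yap1 ranged from -0.074 (without control 1) to 0.43, Mob1a from -0.090 (without control 1; also below 0 without control 3) to 0.51, Wwtr1 from -0.27 to 0.017 (without control 2) and Stk3 from -0.45 to 0.31 (without control 2). The Stk3 to Stk4 ratio ranged from -0.36 to 0.58, below 0 without control 1, control 3 or siRNA library 1. The cause of these differences was not tested. Over the 20 named genes other than Son, 265 values kept direction and side of the threshold, 18 lost a call, 9 gained one and 8 turned.

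The deviations of same-numbered libraries from their group means had correlations of -0.27, -0.33 and 0.02 over 6079 genes. Deviations within a group cancel out, so these correlations depend on each other. They cannot show whether a shared number marks a shared litter or batch, which was not tested. With the replicate number as a block edgeR called 0 genes (1997 at an unadjusted p under 0.05), 0 members, 0 other Hippo genes and 0 YAP and TEAD targets, and Son had -3.29 (adjusted p = 0.0617). Control 2 correlated best with siRNA library 1, at 0.22, and control 1 with siRNA library 2, at 0.41. Depth limits Amotl1, at about 20 read pairs per siRNA library, more than any other member.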
